A study of Homo sapiens with 2 samples.

Results

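The 4 human genes PLAGL1, MEST, GRB10 and IMPACT were examined for LSD2 occupancy in HepG2 cells by chromatin immunoprecipitation followed by sequencing (ChIP-seq). The deposited list gives, on the hg19 build, the intervals in which LSD2 ChIP exceeded input. An interval was assigned to a gene when its midpoint lay within the gene span or within 20 kb of either side, and identical lines were counted once. This gave 77 of the 370863 distinct intervals (0.0208%), with 29 at PLAGL1, 8 at MEST, 34 at GRB10 and 6 at IMPACT.

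HepG2 is a cultured human liver tumour line with an abnormal chromosome number. Both libraries came from untreated HepG2 cells in medium with 25 mM glucose and 10% serum. The LSD2 ChIP group (1 library) was precipitated with rabbit polyclonal serum against most of the human LSD2 protein (residues 26 to 822), and the input group (1 library) used no antibody. Each group was a single library of a single cell line, so no value below has a replicate check and no test between conditions was possible. The list holds positions only, without a height, a fold or a p-value per interval, and the depth of the libraries is unknown here. Ranges given with counts and shares are 95% intervals that cover counting error only and treat neighbouring intervals as independent.

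LSD2, the product of KDM1B, removes methyl groups from lysine 4 of histone H3. In the mouse, the enzyme is abundant in growing oocytes, where loss of Kdm1b leaves some maternal imprints unset, and Mest, Grb10, Plagl1 and Impact are the loci best known for this dependence. An imprint is DNA methylation laid down in 1 parent's germ line at CpG dinucleotides, usually over a promoter, which later silences that parent's allele or directs expression to the other. HepG2 cells are somatic tumour cells, and neither DNA methylation nor allelic expression was measured in them here. In human tissues PLAGL1 and MEST are expressed mainly from the paternal allele at their imprinted promoters, GRB10 is imprinted in a tissue-dependent way, and IMPACT, imprinted in the mouse, is expressed from both alleles.

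The sequences at gene starts are shown because the position of the intervals is given below relative to the outermost start of each gene, and their CpG dinucleotides are marked because imprints are set on CpG. Which of the starts is imprinted was not taken from these data, and the windows shown need not be the imprinted ones. All 4 genes matched the RefSeq promoter table, with 5 starts each for PLAGL1, MEST and GRB10 and 1 for IMPACT. Each line gives the 250 bases before a start, 5′ to 3′ on the gene's strand, from RefSeq on GRCh38.p14, with CG in capitals (CG reads the same on both strands). The outermost start is shown for each gene, followed by the window richest in CG that does not overlap it. These windows were not carried over to hg19, so no interval was placed on an internal start.
PLAGL1, outermost start, chr6:144064600-144064849 (minus strand): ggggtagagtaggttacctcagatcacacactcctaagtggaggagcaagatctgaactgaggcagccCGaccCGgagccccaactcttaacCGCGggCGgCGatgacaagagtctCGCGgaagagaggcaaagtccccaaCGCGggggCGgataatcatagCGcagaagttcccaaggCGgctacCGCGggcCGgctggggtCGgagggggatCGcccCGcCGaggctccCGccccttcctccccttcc
PLAGL1, start 3, chr6:144008260-144008509 (minus strand): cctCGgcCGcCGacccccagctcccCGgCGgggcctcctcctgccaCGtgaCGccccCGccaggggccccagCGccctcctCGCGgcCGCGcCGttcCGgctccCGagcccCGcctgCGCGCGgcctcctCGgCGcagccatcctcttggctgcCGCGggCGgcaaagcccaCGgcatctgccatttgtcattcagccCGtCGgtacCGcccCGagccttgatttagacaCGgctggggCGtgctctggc
MEST, outermost start, chr7:130485925-130486174 (plus strand): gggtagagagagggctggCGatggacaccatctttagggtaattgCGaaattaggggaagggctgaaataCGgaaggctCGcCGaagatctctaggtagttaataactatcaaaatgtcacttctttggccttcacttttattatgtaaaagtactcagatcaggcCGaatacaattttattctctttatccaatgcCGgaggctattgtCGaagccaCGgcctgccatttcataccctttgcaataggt
MEST, start 5, chr7:130491835-130492084 (plus strand): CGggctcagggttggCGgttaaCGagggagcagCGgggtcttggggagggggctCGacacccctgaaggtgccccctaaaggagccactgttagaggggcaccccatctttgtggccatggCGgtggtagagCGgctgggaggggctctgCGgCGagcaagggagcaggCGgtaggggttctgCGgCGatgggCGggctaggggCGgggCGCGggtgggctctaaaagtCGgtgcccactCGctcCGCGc
GRB10, outermost start, chr7:50793454-50793703 (minus strand): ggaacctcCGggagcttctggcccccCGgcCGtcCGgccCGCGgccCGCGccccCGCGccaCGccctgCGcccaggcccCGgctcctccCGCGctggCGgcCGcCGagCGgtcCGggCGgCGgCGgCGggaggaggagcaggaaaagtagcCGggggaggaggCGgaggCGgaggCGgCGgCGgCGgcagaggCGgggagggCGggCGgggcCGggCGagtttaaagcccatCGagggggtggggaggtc
GRB10, start 2, chr7:50792875-50793124 (minus strand): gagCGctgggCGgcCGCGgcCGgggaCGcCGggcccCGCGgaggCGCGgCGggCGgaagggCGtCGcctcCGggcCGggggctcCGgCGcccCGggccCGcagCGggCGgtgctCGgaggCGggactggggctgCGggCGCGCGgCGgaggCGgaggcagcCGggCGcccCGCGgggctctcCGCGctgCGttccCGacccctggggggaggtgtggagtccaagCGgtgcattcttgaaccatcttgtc
IMPACT, outermost start, chr18:24426420-24426669 (plus strand): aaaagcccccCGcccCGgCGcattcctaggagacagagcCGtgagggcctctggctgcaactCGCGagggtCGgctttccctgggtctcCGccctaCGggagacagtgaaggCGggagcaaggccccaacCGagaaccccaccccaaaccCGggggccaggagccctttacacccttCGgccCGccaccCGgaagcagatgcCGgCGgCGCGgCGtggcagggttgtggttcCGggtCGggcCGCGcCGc

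CG content differed among these windows. The outermost PLAGL1 window held 21 CG, a number reached by 30.2% of the 35116 promoter windows in the table. The window at the third start, counted from the outermost, held 32, a number reached by 9.52%. The outermost GRB10 window held 37 CG and that of the second start held 40, numbers reached by 4.0% and 2.16% of all windows. IMPACT held 25 CG, a number reached by 21.6% of all windows. The outermost MEST window held 9 CG, near the median of 11 and reached by 54.1% of all windows. That of the fifth start held 20, a number reached by 32.4%. The window of the second MEST start, which overlaps the outermost one and is not shown, also held 20.

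No deposited interval overlapped the outermost start of any of the 4 genes, taken as 250 bases before to 50 bases after it on hg19. Windows of that length overlapped an interval in 8.85% of cases on chromosome 6, 6.41% on chromosome 7 and 6.1% on chromosome 18, so 0 of 4 is close to this background and is not a result about these starts. At PLAGL1 the nearest interval was 161 bp wide (144383134 to 144383294 on chromosome 6) and its midpoint lay 2.52 kb inside the gene. At MEST the nearest was 149 bp wide (130130462 to 130130610 on chromosome 7), 4.52 kb inside. At IMPACT the nearest was 148 bp wide (22000520 to 22000667 on chromosome 18), 5.99 kb before the start. GRB10 had none within 10 kb of its start, and its nearest interval, 151 bp wide (50878109 to 50878259 on chromosome 7), lay 17.0 kb before it. Within 10 kb of the start there were 4 intervals at MEST, 2 at IMPACT and 1 at PLAGL1. An absent interval means only that the caller's cutoff was not passed there.

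In each of the 4 regions the longest stretch between 2 neighbouring intervals of the region was the one that held the outermost start. Stretches at a region's edges, before its first or past its last interval, were left out. At MEST the stretch from the last interval, ending at 130150713, to the region's end at 130166133 was longer than that at the start. The stretch that held the start measured 34.1 kb at GRB10 (50844059 to 50878108) and 20.2 kb at PLAGL1 (144383295 to 144403522). It was 14.7 kb at IMPACT (22000668 to 22015355) and 10.5 kb at MEST (130119948 to 130130461). Gaps at least as long made up 2.43% of the gaps on chromosome 7 for GRB10 and 3.88% of those on chromosome 6 for PLAGL1, against 16.1% on chromosome 18 for IMPACT and 23.8% on chromosome 7 for MEST. Long gaps take up much of a chromosome, however. Gaps at least as long as that at GRB10 spanned 17.2% of chromosome 7, and gaps at least as long as that at PLAGL1 spanned 20.2% of chromosome 6. The corresponding shares were 63.0% for MEST and 50.8% for IMPACT. This pattern was noticed in the data and depended on the region. Of the 4 starts 2 lay in the longest stretch between neighbours when genes were widened by 50 kb, and 0 when widened by 100 kb. The part played by base composition or mappability was not tested.

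**Figure D1:**
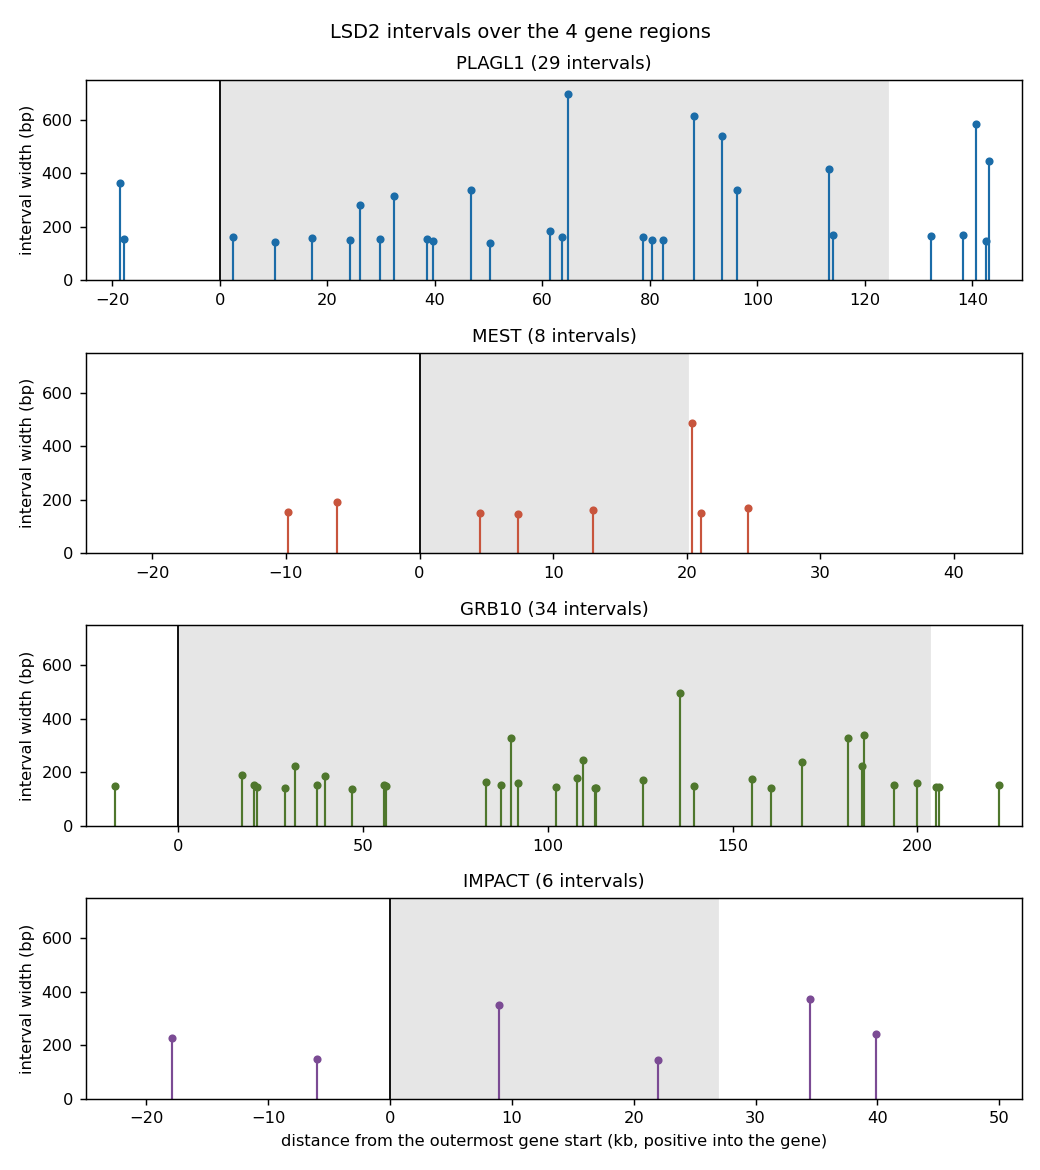
LSD2 intervals at PLAGL1, MEST, GRB10 and IMPACT. Each stem is 1 interval, the x axis is the distance of its midpoint from the outermost gene start (kb, positive into the gene), the y axis is its width (bp) and grey marks the gene span. Few windows of any kind hold an interval (8.85% of those as long as the start window on chromosome 6, fewer on 7 and 18), and the stems nearest to the starts lie 2.52 kb (PLAGL1), 4.52 kb (MEST), 17.0 kb (GRB10) and 5.99 kb (IMPACT) away.

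PLAGL1 encodes a zinc finger transcription factor that restrains cell growth. The gene spans 144261437 to 144385735 on chromosome 6 (hg19) and is read from the minus strand, so its start is at the higher coordinate. Of its 29 intervals 22 lay in the gene span, 2 within 20 kb before the start and 5 within 20 kb past the end. Density was 177 intervals per Mb (118 to 253) in the widened region. It was 286 per Mb in the 500 kb before it, in the direction of the start, and 250 per Mb in the 500 kb past it. PLAGL1 thus had 0.66 times the density of its flanks (0.43 to 0.97), and 1.07 times that of the rest of chromosome 6 (0.72 to 1.54), which averaged 165 per Mb. The flanks, with 268 intervals over both sides, were the denser stretch. The ratio to the flanks was 0.85 (0.54 to 1.29) against flanks of 250 kb and 0.68 (0.42 to 1.05) for the gene span alone.

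Intervals at PLAGL1 also had a lower median width than those around it, but a like share of 400 bp or wider. Their median width was 167 bp (154 to 336), against 252 bp (227 to 279) in the flanks and 182 bp on the rest of chromosome 6. Intervals of 200 bp or wider made up 11 of 29 (37.9%, Wilson interval 22.7% to 56.0%) at PLAGL1 and 166 of 268 (61.9%, 56.0% to 67.5%) in the flanks. Those of 400 bp or wider made up 6 of 29 (20.7%) at PLAGL1 and 55 of 268 (20.5%) in the flanks, against 9.39% on the rest of chromosome 6. The share of bases covered was 4.72% in the region and 7.96% in the flanks, against 4.01% on the rest of the chromosome. The medians' ranges overlapped.

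Along PLAGL1 the wide intervals lay away from the start. All 6 intervals of 400 bp or wider were at least 64.8 kb from it, towards the end of the gene or past it. The widest was 696 bp (144320583 to 144321278), 64.8 kb inside the gene, and the second was 614 bp (144297223 to 144297836), 88.2 kb inside. The 15 intervals nearer to the start than the widest one had a median of 157 bp and reached at most 364 bp. The 14 from the widest one onwards had a median of 254.5 bp. This division was drawn at the widest interval after the values had been seen, so the difference is a description. Closest together were 2 intervals past the end, 205 bp apart. The RefSeq table lists HYMAI, a non-coding transcript of the imprinted domain, next to PLAGL1, with ZC2HC1B and SF3B5 as protein-coding neighbours.

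GRB10 encodes an adaptor protein that binds the insulin receptor and dampens its signalling. It spans 50657760 to 50861159 on chromosome 7 (hg19), on the minus strand, and was the longest of the 4 genes at 203 kb. Of its 34 intervals 30 lay in the gene span, 1 before the start and 3 past the end. Density was 140 intervals per Mb (96.7 to 195), against 114 per Mb in each flank and 122 per Mb on the rest of chromosome 7. The ratio was 1.23 to the flanks (0.81 to 1.81) and 1.14 to the chromosome (0.79 to 1.60), and both ranges included 1. The gene span held 147 per Mb and its 20 kb sides 100.0 per Mb, a ratio of 1.47 (0.52 to 5.76) that rests on 4 intervals in the sides.

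The median width at GRB10 was 155 bp (151 to 180), against 168 bp (158 to 183) in the flanks and 171 bp on the rest of chromosome 7, and its range included both. Intervals of 200 bp or wider made up 8 of 34 (23.5%, Wilson interval 12.4% to 40.0%), against 34.2% in the flanks (26.1% to 43.3%) and 41.2% on the chromosome (40.5% to 41.9%). Each 67.8 kb section of the gene, counted from the start as first, middle and last, held 10 intervals. The number of these of 200 bp or wider was 1 in the first section, 2 in the middle and 5 in the last, small counts given as a description. The widest, at 496 bp (50725220 to 50725715), lay 136 kb inside the gene, and the second, at 341 bp (50675474 to 50675814), lay 186 kb inside. The closest neighbours, each 143 bp wide, were 148 bp apart near the middle of the gene. In the RefSeq table GRB10 lies between DDC, encoding the decarboxylase that makes dopamine and serotonin, and COBL.

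MEST encodes a member of the alpha/beta hydrolase family and spans 130126012 to 130146133 on chromosome 7 (hg19), on the plus strand. Its 8 intervals comprised 2 before the start, 3 in the gene and 3 past the end. The pair before the start were 153 and 193 bp wide, at 9.85 and 6.16 kb from it. Those inside the gene were 149, 145 and 160 bp wide, at 4.52, 7.33 and 13.0 kb from the start. All 3 were under 170 bp, as were 48.2% of all intervals in the list, so this is not a trait of MEST. The widest, at 485 bp (130146188 to 130146672), began 55 bp past the annotated end. It was followed 333 bp later by an interval of 149 bp, and another of 167 bp began 4414 bp past the end. The RefSeq table lists COPG2, a coat protein subunit gene, next to MEST on that side, but the intervals were not assigned to it because no annotation of hg19 was used. The transcripts MESTIT1 and MIR335 are listed beside MEST and were likewise not placed.

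Density at MEST was 133 intervals per Mb (57.4 to 262), against 136 and 156 per Mb in the flanks before and past it. The ratio was 0.91 to the flanks (0.39 to 1.84) and 1.09 to the rest of chromosome 7 (0.47 to 2.15). The median width was 156.5 bp (145 to 485), against 176 bp in the flanks and 171 bp on the chromosome. With 8 intervals, differences of this size were not detectable.

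IMPACT encodes an inhibitor of the stress kinase GCN2 and spans 22006580 to 22033493 on chromosome 18 (hg19), on the plus strand. Its 6 intervals comprised 2 before the start, 2 in the gene and 2 past the end. Those before the start were 228 and 148 bp wide, at 17.9 and 5.99 kb from it. Inside the gene they were 349 bp (22015356 to 22015704) and 145 bp wide, at 8.95 and 21.96 kb from the start. Past the end they were 372 bp (22040853 to 22041224) and 244 bp wide, beginning 7360 and 12849 bp beyond it, on the side where the RefSeq table lists HRH4. The shortest distance between neighbours was 5.12 kb, and 48.4% of the gaps on chromosome 18 were at least as long. The median of the 5 gaps in the region was 12.2 kb, against 4.84 kb on chromosome 18.

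IMPACT had the lowest density of the 4 at 89.7 intervals per Mb (32.9 to 195). Its flanks were unequal, with 110 per Mb before the start and 52.0 per Mb past the end. The ratio was 1.11 to both flanks (0.39 to 2.52) and 0.77 to the rest of chromosome 18 (0.28 to 1.67). The median width was 236 bp (145 to 372), against 162 bp in the flanks and 167 bp on the chromosome. Of the 6 intervals 4 reached 200 bp (Wilson interval 30.0% to 90.3%). That share was 29.6% in the flanks (20.8% to 40.3%) and 39.1% on the rest of chromosome 18, which lay within the region's range. IMPACT was the only one of the 4 regions whose median exceeded that of its flanks, on 6 intervals and with a range that included the flank median. With the gene widened by 50 kb its median was 161.5 bp (148 to 349), no longer above those 162 bp, whereas the other alternatives gave 236 bp or more.

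**Figure D2:**
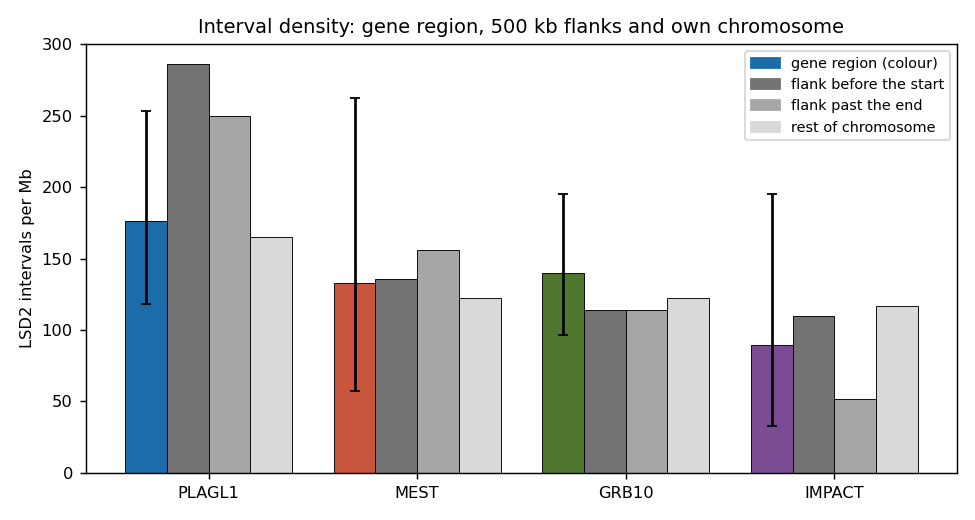
Density of LSD2 intervals (intervals per Mb, y axis) in each gene region (coloured bar), in the 500 kb before and past it and on the rest of its chromosome (grey bars). Error bars are exact Poisson 95% intervals on the region's count. PLAGL1 stood at 177 per Mb (118 to 253), a range that included the flank past it (250) but not the flank before it (286). The ranges of the other 3 regions included both of their flanks.

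**Figure D3:**
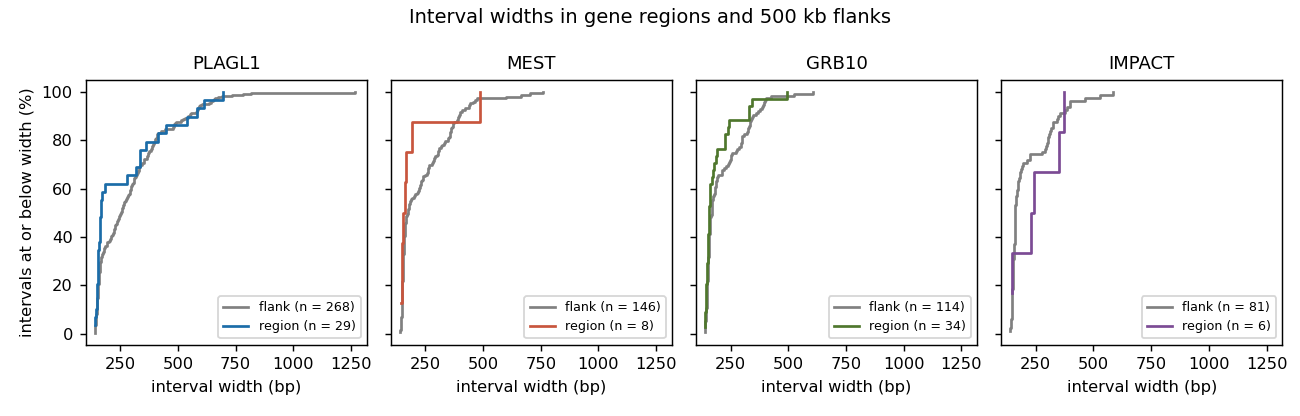
Cumulative share of intervals (%, y axis) by width (bp, x axis) in each gene region (coloured line) and in its 500 kb flanks (grey line). At PLAGL1 the region's median of 167 bp lay below the flank median of 252 bp. At IMPACT 6 intervals gave a median of 236 bp against 162 bp, and 161.5 bp when the gene was widened by 50 kb.

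Set among stretches of equal length on their own chromosomes, all 4 regions were ordinary in number. Each chromosome was divided into tiles as long as the widened gene region, and a tile counted as high at 1.5 times the density of its chromosome or more, and as low at that density divided by 1.5 or less. Of the 4 regions 0 were high and 0 were low. High tiles made up 10.2% on chromosome 6 at the PLAGL1 length, 13.5% and 15.1% on chromosome 7 at the GRB10 and MEST lengths and 17.8% on chromosome 18. Low tiles made up 20.6%, 21.1%, 26.1% and 30.7% in the same order. The median tile held 27 intervals for PLAGL1, which had 29, 29 for GRB10, which had 34, and 7 for both MEST, which had 8, and IMPACT, which had 6. Between 35.1% (GRB10) and 69.3% (IMPACT) of the tiles held at least as many intervals as the region.

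**Figure D4:**
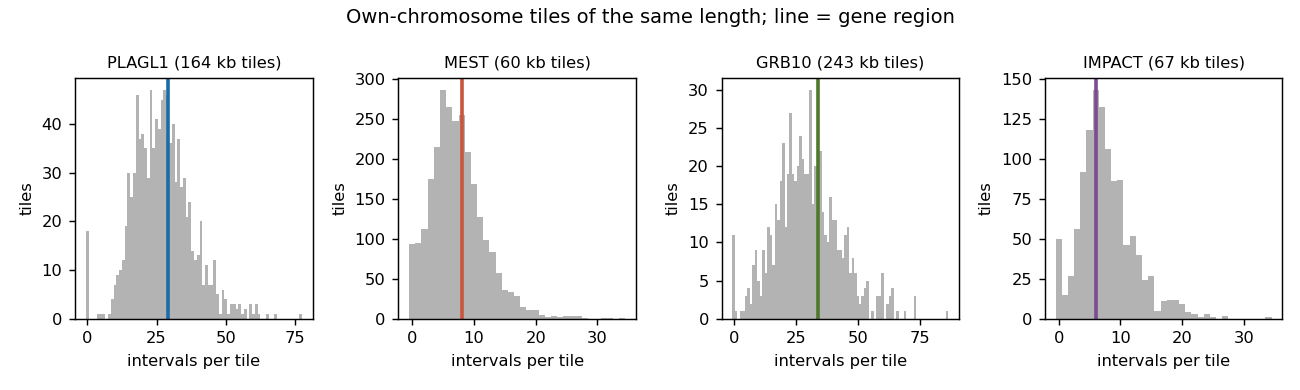
Number of LSD2 intervals per tile (x axis) against the number of tiles (y axis), for tiles of each region's length on its own chromosome, with the gene region as a coloured line. The lines stand at 29 (PLAGL1), 8 (MEST), 34 (GRB10) and 6 (IMPACT), beside median tiles of 27, 7, 29 and 7.

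Over all 4 genes most intervals were short, as in the list as a whole. The 77 intervals ran from 140 to 696 bp with a median of 161 bp, against 173 bp over all intervals. Those of 200 bp or wider numbered 24 (31.2%, Wilson interval 21.9% to 42.2%), against 42.2% over the list. Those of 400 bp or wider numbered 8 (10.4% against 7.89%), of which 6 were at PLAGL1. Their share there was near that of the PLAGL1 flanks (20.7% against 20.5%). Lines given more than once described 4 of the 77 intervals (5.19%, Wilson interval 2.04% to 12.6%), against 10.1% over the list, and each of the 4 was listed 2 times. They were 144353129 to 144353445 (317 bp) and 144355878 to 144356031 (154 bp) in PLAGL1, 130133274 to 130133418 (145 bp) in MEST and 22015356 to 22015704 (349 bp) in IMPACT. All 4 lay within a gene span, as did 57 of the 77 intervals, so their place is not a trait of the repeated lines. They were between 7.33 and 32.4 kb from the start.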

How the data were processed

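LSD2 ChIP (1 library) and input (1 library) from HepG2 cells were grouped by source name. The submitters' processing notes name BWA and hg19. Per the file headers, the authors trimmed reads, removed duplicates and ran MACS with LSD2 as treatment and input as control (p-value cutoff 1e-05, enrichment factor 32, reads and fragments of 120 bp, genome size 2700 Mb, local biases detected). The deposited values are interval starts and ends in bases. Such calls grow in number and width with depth and with local DNA copy number, and neither was measured here.

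The 414095 lines gave 370863 distinct intervals. Gene spans are those given with the choice of genes, and the members and lists were chosen with earlier results of these data known. Positions count from 1. Density was compared with 500 kb flanks and the rest of the chromosome, from its first to its last interval. Ranges are exact conditional binomial intervals for ratios, exact Poisson intervals for densities, order-statistic intervals for medians and Wilson intervals for shares. Python 3.11.15 and scipy 1.17.1 were used. The ratio was tested on simulated independent counts at a uniform density, a setting that leaves out any clustering of intervals along a chromosome. All 4 genes are named, with the 2 widest intervals, the one nearest to the start, repeated lines, and the shortest and longest gaps. Exons, introns and internal starts were not placed, since no hg19 annotation was used. Alternatives covered interval width, repeated lines, merging, overlap, widening, flank length and searched sequence.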

Additional observations from a re-analysis of the deposited data

How the results depend on the processing

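Of 103 planned values recomputed under alternatives, 96 stayed within the counting interval of the reported value and none reversed a ratio whose range excluded 1, which was only PLAGL1 against its flanks. The 7 others came from keeping intervals of at least 173 bp, which by construction leaves fewer and wider ones. There the PLAGL1 ratio to its flanks was 0.41, median widths were 389.5 bp at PLAGL1 and 232.5 bp at GRB10, covered shares were 3.11% at PLAGL1, 1.13% at MEST and 1.30% at GRB10, and the MEST gene-to-sides ratio was 0, since no interval was left in the gene. The PLAGL1 ratio to its flanks stayed below 1, from 0.41 to 0.85. Its range included 1 with flanks of 250 kb (0.54 to 1.29) and for the gene span alone (0.42 to 1.05). Staying within a counting interval is a weak check, since these ranges were wide and the alternatives mostly reused the same deposited intervals. The IMPACT ratio to its flanks moved from 1.11 to 1.93 and still counted as within. The IMPACT median width fell to 161.5 bp with 50 kb of widening, within its counting interval. The number of starts in the longest gap between neighbours, region edges left out, was 3 among intervals of at least 173 bp and 4 after merging. It was 2 with 50 kb of widening and 0 with 100 kb, and these alternatives were chosen after seeing the data. No paired analysis was possible because ChIP and input were single libraries. With depth unknown, an absent interval may reflect too few reads.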
